A study of Mus musculus with 3 samples.

Results

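The myeloid cells of the mouse ovary made up 361 of 31776 cells, or 1.14% (exact binomial 95% interval 1.02 to 1.26), in a single-cell RNA-seq dataset prepared with 10x Genomics droplets. A cell was taken as myeloid when its deposited values met 3 conditions. At least 3 of the 7 genes *Ptprc*, *Tyrobp*, *Fcer1g*, *C1qa*, *C1qb*, *Cd68* and *Lyz2* had a value above 0. *Tyrobp* or *Fcer1g* reached 1.5 on the natural log scale of the file. *Inha* was under 2.5 and *Cyp17a1* under 2, and *Cdh5* was 0, which set aside cells with high signal of granulosa cells, theca cells or endothelium. The members were therefore chosen by their measured values, and the levels of these 10 genes in them are a description.

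The labels name 3 libraries of whole ovary, taken 0, 1 and 6 h after an injection of hCG, which stands in for the LH surge that brings on ovulation, with 1 library per time point. In the study's methods the mice are Kunming females 21 days of age, primed for 48 h with PMSG, which acts like FSH. The methods do not state whether the ovaries at 1 and 6 h had received it. No genetic change is named for any group, and the number of animals in a library is not given in the sources used here. The cell barcodes of the deposited table end in 1, 2 or 3. The library names carry the same digits, but no source ties an ending to a library, so the cells of each ending are called barcode sets 1, 2 and 3 and no time point is given to them. Nothing was replicated, so no test was run, and every interval covers counting error only. Differences between the sets cannot be told apart from differences between library preparations.

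Myeloid cells descend from the bone marrow or from embryonic progenitors, and macrophages are the main leukocytes of the ovary outside ovulation. They clear dying granulosa cells during atresia, remodel matrix around vessels and follicles, and take part in forming and removing corpora lutea. Monocytes and neutrophils enter from the blood and accumulate in the follicle wall around ovulation, whereas dendritic cells take up antigen and present it on MHC class II.

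Set 1 held 90 myeloid cells of 10384, or 0.867% (0.698 to 1.06). Set 2 held 130 of 9917, or 1.31% (1.10 to 1.55), and set 3 held 141 of 11475, or 1.23% (1.04 to 1.45). The interval of set 1 did not overlap that of set 2 and overlapped that of set 3 by a small margin. The myeloid cells had 1899523 UMIs (unique molecular identifiers, one per captured RNA molecule), with a median of 4932, 4987 and 3637 UMIs per cell in sets 1, 2 and 3, against 6099.5, 6366 and 6550 in all other cells. Their median share of mitochondrial UMIs was 3.19%, 3.46% and 2.46%, against 3.96%, 4.44% and 2.94% in all other cells. Between any pair of sets, 27 to 46 barcodes occurred in both sets, and 3 myeloid cells carried such a barcode, each paired with a cell that was not myeloid.

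Most members sat well above the threshold of the rule. The higher of *Tyrobp* and *Fcer1g* had a median of 3.84 and ran from 1.68 to 5.03 on the natural log scale. Both genes were above 0 in 351 of the 361 cells, and 307 cells held at least 10 UMIs of the pair. Of the members, 8 were under 2 on this scale, while 5 cells met every other condition and missed the threshold, the highest of them at 1.498. By number of genes, 121 cells had all 7 above 0, 82 had 6, 63 had 5, 43 had 4 and 52 had the minimum of 3. Just outside, 12 cells with 2 of the 7 genes met the other conditions, with a median of 983 UMIs. The exclusions alone removed 52 cells, of which 34 were over the limit for *Inha*, 6 for *Cyp17a1* and 16 for *Cdh5*, and these cells had a median of 7197 UMIs.

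Levels are given as the mean over cells of UMIs per 10000 UMIs of the cell. *Tyrobp* and *Fcer1g* encode ITAM adaptors that pass signals from Fc and related receptors. *Fcer1g* was at 43.3, 42.7 and 50.5 in the myeloid cells of sets 1, 2 and 3, against 0.0909, 0.134 and 0.136 in all other cells. *Tyrobp* was at 21.6, 20.5 and 21.6, against 0.0144, 0.0622 and 0.0594. The levels of both adaptors were thus close to each other in the 3 sets. *Lyz2*, the lysozyme of macrophages and neutrophils, was at 49.8, 50.8 and 52.4, against 0.0579, 0.0835 and 0.0588. *C1qa*, a chain of complement C1q, was at 28.2, 37.5 and 27.2, against 0.0353, 0.0584 and 0.0425. *C1qa* was detected in 63 of 90, 94 of 130 and 69 of 141 cells, so it was missing from more of the myeloid cells of set 3. *Ptprc*, which encodes the leukocyte phosphatase CD45, was at 5.75, 4.62 and 7.29.

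**Figure D1:**
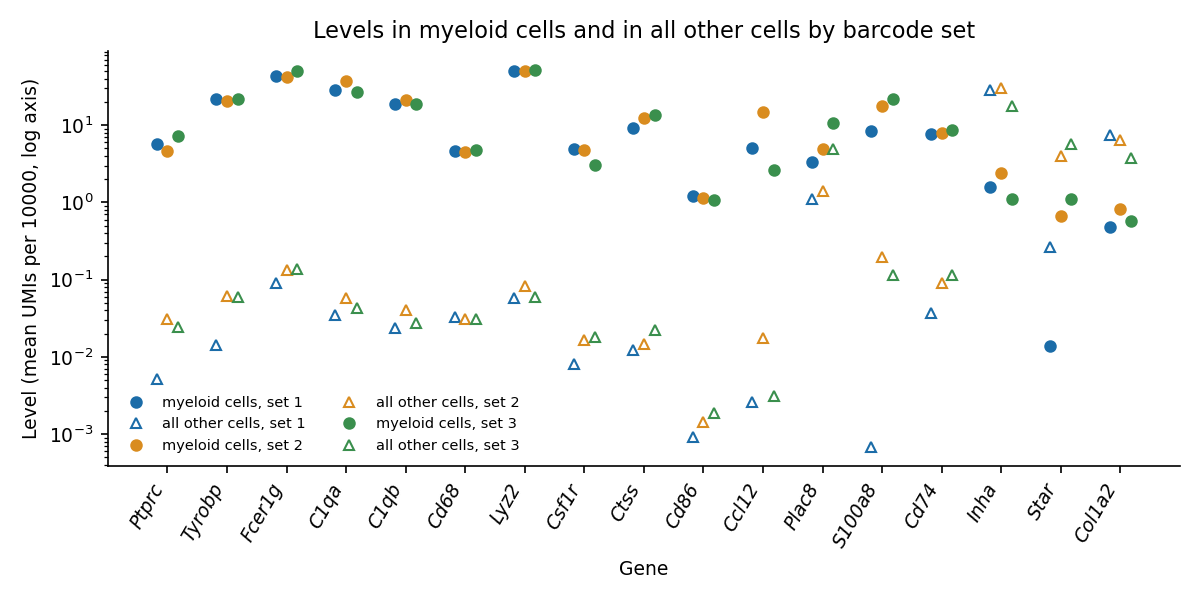
Level of 17 genes (mean UMIs per 10000, log axis) in the myeloid cells (filled circles) and all other cells (open triangles) of barcode sets 1, 2 and 3. The genes of the rule sat above the other cells in every set because the rule chose them. *Inha*, which the rule capped, sat below, and *Star* and *Col1a2* sat below as well, and a value of 0 has no symbol.

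Free RNA in droplets can give a few UMIs to cells that do not express a gene. Cells with UMIs of 5 or more of 10 granulosa markers served as the comparison, since granulosa cells are not leukocytes. Cells that met the first 2 conditions of the rule were left out of them. *Tyrobp* was detected in 97.8% of myeloid cells (median 4598 UMIs) and in 0.530% of the 11519 granulosa-marker cells (median 7401 UMIs). *Fcer1g* was detected in 99.4% and 3.96%, *C1qa* in 62.6% and 1.22%, and *Lyz2* in 85.9% and 1.82%. These are genes of the rule, so their shares were raised in the myeloid cells and lowered in the granulosa-marker cells by the choice of cells. Shares of related genes outside the rule are not free of this choice. Outside the rule, *Csf1r* was detected in 67.3% and 0.538%, and *Pf4* in 64.3% and 0.790%. *Apoe*, another listed macrophage marker, was detected in 81.4% and 35.9%, so not every marker was near 0 in the granulosa-marker cells. Myeloid cells and a sample of 2000 granulosa-marker cells were also thinned to a common 2000 UMIs. This left out 71 shallower myeloid cells, and the sample was drawn without the 122 shallower granulosa-marker cells. The thinned shares were 92.4% and 0.15% for *Tyrobp*, 67.2% and 0.25% for *C1qa*, 90.7% and 0.5% for *Lyz2*, 47.2% and 0.2% for *Csf1r*, and 67.9% and 0.35% for *Pf4*. They were 98.3% and 1.1% for *Fcer1g* and 86.9% and 15.1% for *Apoe*.

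UMIs of granulosa genes were also found in the myeloid cells. The rule capped *Inha*, so its level in them was limited by the choice of cells and is a description. *Inha*, which encodes the inhibin alpha subunit, was at 1.59, 2.42 and 1.10 in the myeloid cells of sets 1, 2 and 3, against 28.6, 30.3 and 17.5 in all other cells, and 178 of the 361 cells had at least 1 UMI of it. The summed level of the 10 granulosa markers, *Inha* included, was 10.4, 11.3 and 3.49, against 68.9, 76.6 and 29.2 in all other cells. UMIs of at least 3 of these markers were found in 35, 82 and 14 of the myeloid cells of sets 1, 2 and 3. This signal moved between the sets. Some calls ended without those 131 cells, without a cluster or without the single cell of a gene's highest level. For part of the genes this stands beside the values or in the closing section. Without the cells holding these markers, 38 of 114 calls of named genes over all myeloid cells ended in the same direction. In the macrophage-like cells described below, 43 of 113 did. A call given without such a remark may therefore not have held. The part of the granulosa signal in the other results was not tested.

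The genes of largest fold over all other cells were taken among those at a level of at least 1. Beyond the genes of the rule, they included the macrophage markers *Adgre1*, *C1qc* and *Pf4*, and *F13a1*, which is on the monocyte list. The rest are on neither of these marker lists. *F13a1* was detected in 143 of the 213 macrophage-like cells described below, so it was not particular to monocyte-like cells. These folds are a description, since the cells were chosen by related genes. The largest was for *Ccl12*, a chemokine that attracts monocytes, with 1036-fold. It was followed by *Ifitm6* (914-fold), *Cd209f* (837-fold), which encodes a C-type lectin of the DC-SIGN family, *Cd86* (794-fold), a costimulatory ligand of T cells, *Ms4a6c* (794-fold) and *Clec4a3* (746-fold). These folds pool the sets. *Ccl12* was at 5.11, 14.95 and 2.63 in sets 1, 2 and 3, highest in set 2. *Cd209f* was held by 22 of the 361 cells, 14 of them in set 1, and was at 4.52, 0.0815 and 0.7498 in sets 1, 2 and 3, so its place rests on few cells of 1 set. *Ccl24*, an eosinophil chemokine, stood at 739-fold, and *Ctss*, the cathepsin that trims the invariant chain, at 729-fold. *Adgre1*, which encodes the macrophage antigen F4/80, stood at 681-fold, *C1qc* at 644-fold, *F13a1* (coagulation factor XIII A) at 594-fold and *Pf4* (platelet factor 4) at 591-fold. The 20 genes of largest fold also held 3 genes of the rule, *Lyz2*, *C1qa* and *C1qb*. Of the 20, 10 stayed in the top 20 after thinning to 2000 UMIs and 7 when the deposited log values were averaged. Members of the *Ccl*, *Cd209* and *Clec4a* families have close paralogs, and how the counting split their reads is not given in the sources used here.

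The promoters of these 20 genes were searched for 1 motif. PU.1, encoded by *Spi1*, is the transcription factor that sets up the myeloid program, and it binds sequences built around GAGGAA. Of the 20 genes, 16 were matched by symbol in the RefSeq table of build GRCm38.p6, the mm10 assembly named in the submitters' processing notes. In the 250 bases before the start, GAGGAA on either strand was found for 8 of the 16 genes (50%), against 7639 of 32851 promoters (23.3%) in the table. Each leading gene was searched at the first promoter of its symbol, while the table share counts every promoter, so the units differ. Without the genes of the rule it was found for 7 of 14, so a like number of leading genes did not hold it in this window. The examples given here, a complement chain, a chemokine, a platelet factor and a lectin, were picked among genes with a match. Their 150 bases before the start are printed with the motif or its reverse complement in capitals.
*Ccl12*, chr11:82101695-82101844, plus strand: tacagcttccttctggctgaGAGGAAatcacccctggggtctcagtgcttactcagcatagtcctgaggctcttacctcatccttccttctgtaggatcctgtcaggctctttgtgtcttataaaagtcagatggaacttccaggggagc
*C1qb*, chr4:136886201-136886350, minus strand: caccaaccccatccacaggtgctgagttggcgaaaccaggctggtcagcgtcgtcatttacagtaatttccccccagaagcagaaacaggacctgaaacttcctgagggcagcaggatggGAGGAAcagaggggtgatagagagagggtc
*Clec12a*, chr6:129350094-129350243, plus strand: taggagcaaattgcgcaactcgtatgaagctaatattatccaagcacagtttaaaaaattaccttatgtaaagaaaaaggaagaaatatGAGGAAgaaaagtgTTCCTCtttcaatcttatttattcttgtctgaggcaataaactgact
*Pf4*, chr5:90772285-90772434, plus strand: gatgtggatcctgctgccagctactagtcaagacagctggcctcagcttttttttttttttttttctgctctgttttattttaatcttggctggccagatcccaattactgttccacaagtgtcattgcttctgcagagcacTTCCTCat
In *C1qb* the match began 30 bases before the start and in *Ccl12* 130 bases before it. In *Pf4* it lay on the opposite strand, 8 bases before the start. *Clec12a* held a match on each strand, 61 and 47 bases before the start. A match is a description of letters and was not tested for binding.

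Clustering of the 361 cells on 1000 genes gave 8 clusters, named from marker lists, with naming thresholds chosen once the clusters were known. The genes that define a cluster describe it and are not a result. Of these, 4 clusters with 213 cells were macrophage-like, with 13 or 14 of 18 macrophage markers. One was monocyte-like with 54 cells, 1 neutrophil-like with 29 cells, 1 dendritic-like with 15 cells and 1 with 50 cells stayed unnamed. No doublet caller was run on these cells.

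**Figure D2:**
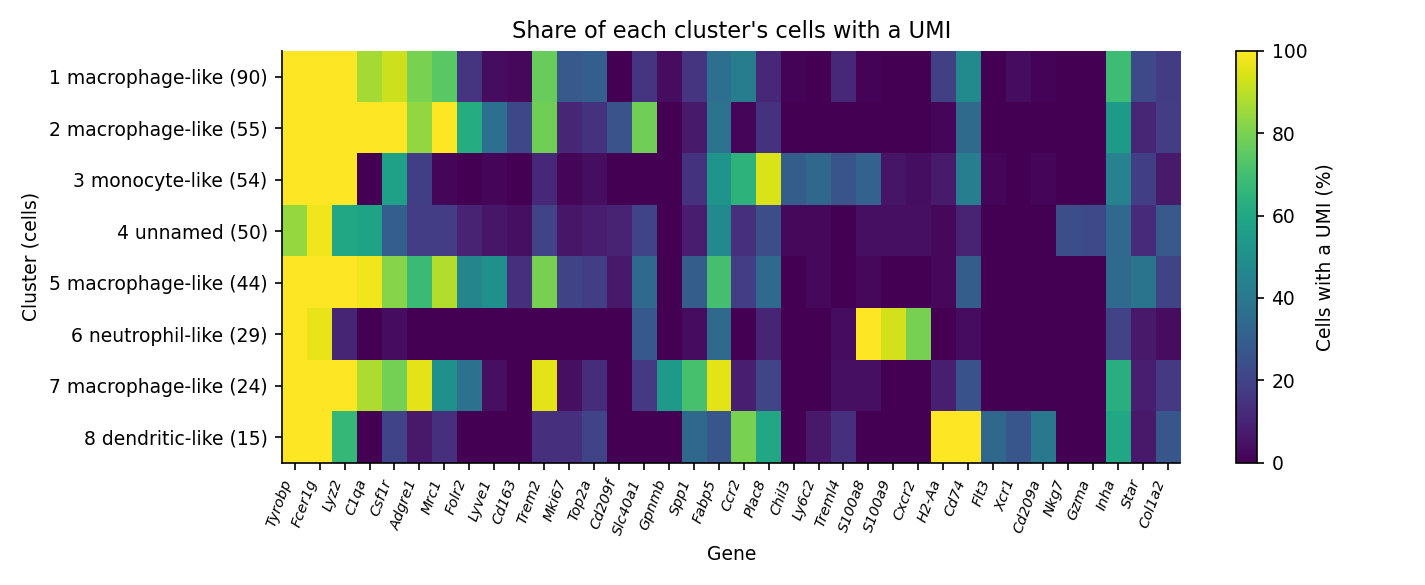
Share of the cells of each cluster (%) with at least 1 UMI of a gene, with the number of cells in brackets. *C1qa* is detected in the macrophage-like clusters and in none of the monocyte-like, neutrophil-like and dendritic-like cells.

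The macrophage-like cells differed among themselves. Cluster 1 (90 cells) was led by histone and mitotic genes, and *Mki67*, a marker of cycling cells, was at 1.53 in it and detected in 25 of its cells. At resolution 2, such genes led a cluster of 35 cells (16, 8 and 11 in sets 1, 2 and 3), with *Mki67* at 3.45. Another cluster of 47 macrophage-like cells (9, 37 and 1) was then led by *Cxcl10*, *Creb5* and *Hspa1b*. Cluster 2 (55 cells) was led by *Cd209f* and *Cd209g* and held *Slc40a1*, which encodes the iron exporter ferroportin, at 6.41 against 0.967 in the other myeloid cells, and *Folr2*, a folate receptor of tissue macrophages, in 34 of its cells. Cluster 5 (44 cells) was led by *Lyve1*, a hyaluronan receptor of macrophages beside vessels, at 3.59 against 0.354, and had *Ccl7* at 12.1 against 3.25. *Lyve1* was detected in 22 of its 44 cells, and cluster 2 also had it, at 1.60 in 20 of 55 cells. Cluster 7 (24 cells) was led by *Gpnmb*, with *Spp1* (osteopontin) at 15.5 against 0.840, *Fabp5*, a carrier of fatty acids, at 46.8 against 3.19, and *Ctsd* (cathepsin D) at 59.0 against 9.05. Cluster 7 also had *Lyz2* at 153 and *Trem2*, a lipid receptor of phagocytes, in 23 of its 24 cells.

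The other clusters lacked *C1qa*, apart from the unnamed one. The monocyte-like cells had *Plac8* at 36.8 against 1.46, *S100a4* at 24.3 against 1.504, *Ifitm6* at 6.80 against 0.318 and *Chil3* at 2.31 against 0.0171 in the other myeloid cells. *Ccr2*, the chemokine receptor by which monocytes leave the marrow, was detected in 35 of the 54. It was also detected in 12 of the 15 dendritic-like cells and in 38 of the 90 cells of cluster 1. Of the 13 monocyte markers, 8 counted for this cluster, among them *Ly6c2* in 18 and *Chil3* in 16 of its 54 cells. *S100a4* and *Ifitm6* are not on that list. Neutrophil-like cells were small libraries with a median of 973 UMIs, and *S100a9* and *S100a8*, the subunits of calprotectin, were at 377 and 192 against 0.880 and 1.69. *Cxcr2*, the neutrophil chemokine receptor, was at 16.6 against 0.0385. Dendritic-like cells had the MHC class II genes *H2-Aa* at 103 against 1.10 and *H2-Eb1* at 107 against 1.07, with *Cd74*, the invariant chain, at 119 against 3.35. They carried 7 of 8 markers of type 1 and 7 of 10 markers of type 2 conventional dendritic cells, so no subtype was named.

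The unnamed cluster of 50 cells had a median of 2058 UMIs and was led by *Gzma*, *Ccl5*, *Nkg7*, *Prf1* and *Ncr1*, genes of natural killer (NK) cells. *Nkg7* was detected in 12 of its cells and in no other myeloid cell. At resolution 2 a cluster of 12 cells had 12 of 14 NK markers, with *Nkg7* in 11 of them and 3, 6 and 3 cells in sets 1, 2 and 3. The other 38 cells, with a median of 1307.5 UMIs, were then led by genes of stroma, among them *Fstl1* in 11 and *Col1a1*, a collagen chain, in 15 of them. *Fstl1* was also among the 10 leading genes of the 50 cells, at 1.14 against 0.0640. UMIs of at least 3 of 8 stromal markers were found in 24 myeloid cells, and the part of stromal RNA was not tested. UMIs of at least 3 NK markers were found in 13 myeloid cells. The rule thus took in a few cells whose markers are those of NK cells, which are lymphoid and share the adaptors *Tyrobp* and *Fcer1g*. Of 8 mast cell markers in the table, 5 had UMIs in the myeloid cells and *Tpsb2*, *Tpsab1* and *Ms4a2* were at 0, and 1 cell held 3 or more. Of 6 eosinophil markers, 3 had UMIs and *Siglecf* and *Prg2* were at 0, and of 8 B cell markers 4 had UMIs and *Cd79a* was at 0. No myeloid cell held 3 or more markers of eosinophils or of B cells.

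The classes were unevenly shared among the sets. Macrophage-like cells made up 67.8% (57.1 to 77.2), 63.8% (55.0 to 72.1) and 48.9% (40.4 to 57.5) of the myeloid cells of sets 1, 2 and 3. Monocyte-like cells made up 5.56% (1.83 to 12.5), 6.92% (3.21 to 12.7) and 28.4% (21.1 to 36.6), so the share in set 3 lay above the other two beyond counting error. Of all cells, monocyte-like cells were 0.0482%, 0.0908% and 0.349%. Macrophage-like cells were 0.587%, 0.837% and 0.601% of all cells, so on this base set 3 was not below set 1. Neutrophil-like cells made up 8.89%, 6.92% and 8.51%, and dendritic-like cells 5 cells in each set, with overlapping intervals. The neutrophil-like shares count only cells that met the rule. Outside it, 0, 15 and 11 cells of sets 1, 2 and 3 had UMIs of at least 2 of *S100a8*, *S100a9* and *Retnlg*. The like shares therefore do not show that cells with neutrophil genes were equally common in the sets. These sizes rest on clusters defined by the genes that differ. At resolution 0.5 all 54 monocyte-like cells, and with variable genes chosen without a filter 52 of them, fell in clusters named neutrophil-like, which held 14.4%, 13.8% and 36.9% of the myeloid cells at resolution 0.5.

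**Figure D3:**
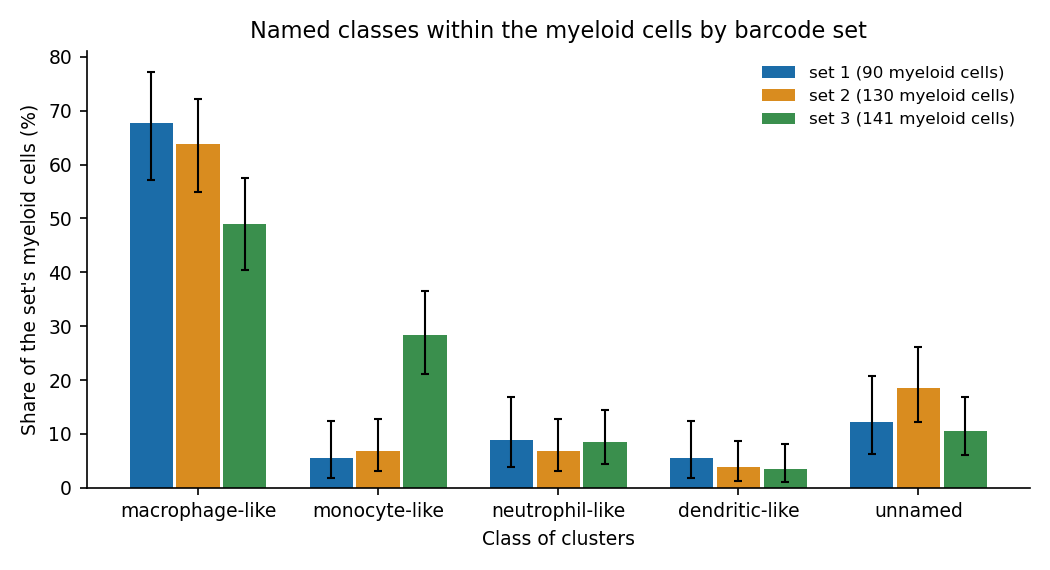
Share of the myeloid cells of each barcode set (%) in each class of clusters, with exact binomial 95% intervals as error bars. The monocyte-like share of 28.4% in set 3 lies above 5.56% and 6.92%, while the intervals of the neutrophil-like and dendritic-like classes overlap. Cells with neutrophil genes that did not meet the rule are not counted.

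Within the macrophage-like cells, cluster 2 held 27, 27 and 1 cells of sets 1, 2 and 3, while cluster 5 held 1, 3 and 40. Macrophage-like cells of set 3 thus fell mostly in another cluster than those of sets 1 and 2, and cluster 5 may be that set and not a type. Cluster 1 held 26, 46 and 18 cells, and cluster 7 held 7, 7 and 10. Cluster 1 thus held 46 of the 83 macrophage-like cells of set 2, so leaving it out removes more than cycling cells. Values within the class are compared between sets with this in view.

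Levels were then compared between sets over all 361 myeloid cells. A gene was called when its level differed by at least 2-fold, with 95% counting intervals that left out 1, among genes with at least 30 UMIs in the pair of sets. From set 1 to set 2, 120 of 5051 genes (2.38%) were higher and 83 (1.64%) lower. Without the cells holding 3 or more granulosa markers these counts were 43 and 62, so the balance turned. From set 2 to set 3, 283 of 5571 genes (5.08%) were higher and 197 (3.54%) lower, or 183 and 78 without those cells. Set 3 against set 1 gave 254 of 5128 genes (4.95%) higher and 218 (4.25%) lower, or 214 and 120 without those cells. The numbers of cells and of UMIs differ between pairs, so these percentages are a background for the lists and not a ranking of the pairs.

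Genes of monocytes were among those that differed, in parallel with the class shares. *S100a4*, which encodes a calcium-binding protein of motile leukocytes, was at 1.5, 2.55 and 9.27 in the myeloid cells of sets 1, 2 and 3, with 18, 31 and 64 cells holding a UMI. It was 3.63-fold higher (3.02 to 4.38) in set 3 than in set 2, while all other cells were at 0.122, 0.0951 and 0.0928. *Ms4a4c* was at 0.253, 0.732 and 1.61, with 10, 19 and 46 cells, and differed in all 3 pairs. Without the cells holding 3 or more granulosa markers its ratios were 2.30 in set 2 to set 1 and 2.31 in set 3 to set 2, which were not called. *Ifitm6* was at 0.535, 0.806 and 2.21, with 8, 16 and 39 cells, and was 2.75-fold higher (1.74 to 4.45) in set 3 than in set 2, or 1.60-fold and not called without the cells with granulosa markers. These genes lead or mark the monocyte-like cluster, which holds most of its cells in set 3, so they describe the same difference and are no independent measure of it. Of the 13 monocyte markers, 2 of 7 compared were higher in set 2 than in set 1, and 4 of 11 were higher in set 3 than in set 2, with none lower in either pair. The 4 were *Plac8*, *Vcan*, *Ms4a4c* and *Fn1*. Of these, *Vcan*, which encodes the matrix proteoglycan versican, was detected in 75.8% of the granulosa-marker cells, *Fn1* (fibronectin) in 17.2%, *Plac8* in 12.0% and *Ms4a4c* in 0.0347%. The summed level of the 13 markers was 10.4, 15.4 and 25.7 in the myeloid cells, and 5.77, 11.6 and 20.7 in all other cells.

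*Plac8* was at 3.36, 4.89 and 10.6, with 22, 18 and 73 cells, but all other cells also went from 1.10 and 1.43 to 4.85. *Ccr2* was at 1.22, 1.46 and 2.27, with 18, 31 and 54 cells, and did not pass 2-fold in any pair. The cytokine gene *Il1b* was at 6.86, 5.14 and 16.7 and was 3.25-fold higher (2.61 to 4.07) in set 3 than in set 2. *Saa3*, an acute-phase gene, was not detected in the myeloid cells of set 1 and was at 0.218 in set 2 and 2.83 in set 3, where 15 cells held it. Against the level that 3 UMIs would give in set 1, 0.0591, this was at least 48.0-fold higher in set 3. In the macrophage-like cells alone, *Saa3* was lower in set 3 than in set 2, at a ratio of 0.521. *Ccl5*, at 0.0247, 4.77 and 4.71, came from 2, 8 and 5 cells and is a gene of the NK-marker cells described above.

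Levels were compared again within the macrophage-like cells, with 61, 83 and 69 cells and medians of 5919, 5743 and 5713 UMIs in sets 1, 2 and 3. UMIs of 3 or more granulosa markers were found in 29, 62 and 10 of them. Leaving these out left 32, 21 and 59 cells, so a call could end without them although the ratio was as large. From set 1 to set 2, 92 of 4144 genes (2.22%) were higher and 102 (2.46%) lower. The counts were 34 and 51 without the cells holding granulosa markers and 61 and 43 without cluster 1. From set 2 to set 3, 275 of 4247 genes (6.48%) were higher and 177 (4.17%) lower, or 173 and 84 without the cells holding granulosa markers. Set 3 against set 1 gave 203 of 4023 genes (5.05%) higher and 167 (4.15%) lower, or 163 and 101 without those cells. The median log2 ratio over the genes compared was -0.08, 0.10 and 0.03 for these pairs. Some of these genes were also called in all other cells. From set 2 to set 3, 80 of the higher and 46 of the lower genes were called in the same direction there. From set 1 to set 2, 30 and 4 were, and in set 3 against set 1, 57 and 45. The share of all compared genes called in all other cells is not given here. These counts therefore do not tell a shared change from background.

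**Figure D4:**
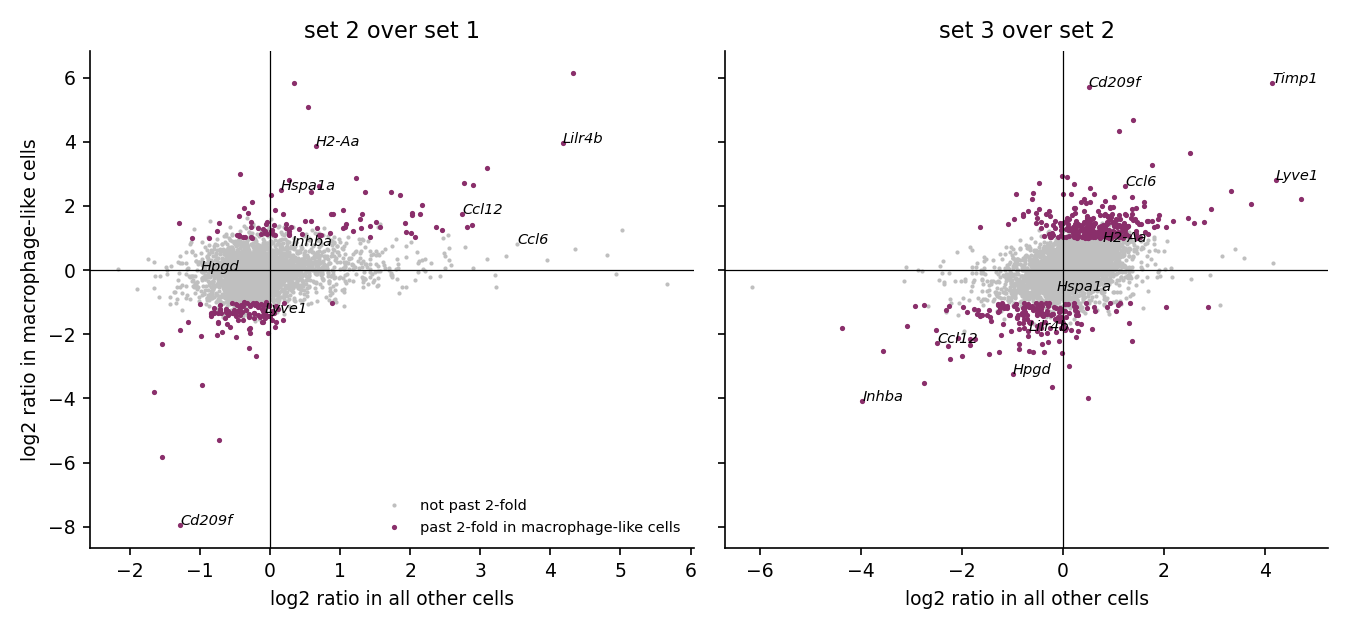
Log2 ratio between barcode sets for each gene compared, in macrophage-like cells (vertical) against all other cells (horizontal), with genes past 2-fold in macrophage-like cells in purple and ratios against 0 taken against 3 UMIs. *Timp1* and *Inhba* moved in both, while *Hspa1a* from set 1 to set 2 and *Hpgd* from set 2 to set 3 moved more in macrophage-like cells.

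At the background shares given above for macrophage-like cells, lists of about 10 genes hold few or no calls, so a count of 0 says little about a list. None of the receptor adaptors and immune kinases (9 or 10 compared) or the colony-stimulating and chemokine receptors (8 to 10 compared) was past 2-fold in any pair. Of the Fc receptors only *Fcgr4* was called, at 0.400, 0.782 and 1.12, in set 3 against set 1. The ratio was 2.81, and the call ended at 2.24 without the cells holding 3 or more granulosa markers and at 1.82 without cluster 1. *Csf1r*, the receptor for the macrophage growth factor CSF1, was at 5.95, 6.23 and 3.72. *Pf4* was at 31.2, 31.7 and 34.5, and *C1qb* at 24.1, 29.2 and 34.6.

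Chemokine genes were called in every pair. From set 1 to set 2, 4 of 13 chemokines compared were higher and none lower, with a median log2 ratio of 0.59. *Ccl12* was at 6.52, 21.8 and 4.51 in sets 1, 2 and 3, so it was high in set 2 alone. It was 3.35-fold higher (2.81 to 4.01) in set 2 than in set 1 and fell to 0.206-fold (0.175 to 0.243) in set 3. *Ccl2*, the main ligand of CCR2, was at 6.65, 16.4 and 5.48 and had the same order. It was 2.47-fold higher (2.10 to 2.91) in set 2 than in set 1 and 0.334-fold (0.283 to 0.393) in set 3 against set 2.

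Other chemokines were high in set 3. *Ccl6* was at 0.885, 1.54 and 9.51, detected in 17, 35 and 50 cells, and was 6.18-fold higher (4.75 to 8.14) in set 3 than in set 2, with 0.00104, 0.0120 and 0.0282 in all other cells. *Ccl9* was at 0.690, 1.503 and 5.67 and was 3.77-fold higher (2.80 to 5.15) in set 3 than in set 2, with 0.00130, 0.00119 and 0.00910 in all other cells. The ratios of set 3 to set 2 in all other cells were 2.35 for *Ccl6* and 7.64 for *Ccl9*. *Ccl7* was at 3.44, 8.49 and 8.52, higher in sets 2 and 3 than in set 1. *Ccl24* was at 4.17, 2.53 and 1.28 and was 0.307-fold (0.190 to 0.480) in set 3 against set 1. Among the leading genes of clusters are *Ccl24* and *Ccl8* for cluster 2 and *Ccl7* for cluster 5. Their levels are thus not independent of how the sets fell in these clusters. *Cxcl10*, a ligand of CXCR3 induced by interferon, was at 4.70, 9.15 and 3.57 and was 0.390-fold (0.319 to 0.474) in set 3 against set 2. From set 2 to set 3, 3 of 14 chemokines were called higher (*Ccl6*, *Ccl8* and *Ccl9*) and 3 lower (*Ccl2*, *Ccl12* and *Cxcl10*). Without the cells holding 3 or more granulosa markers, *Ccl7* and *Ccl9* in set 2 to set 1 (ratios of 1.90 and 1.63) and *Cxcl10* in set 3 to set 2 (0.648) were no longer called. Without cluster 1 the ratio of *Ccl9* in set 2 to set 1 was 1.52.

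**Figure D5:**
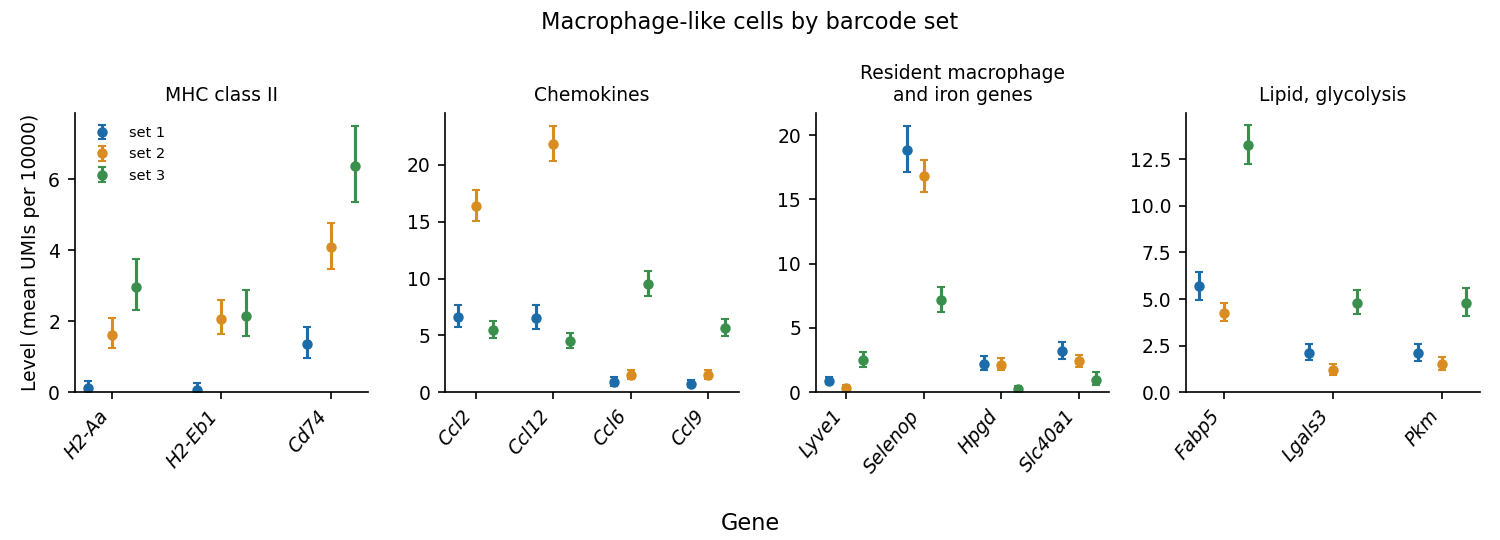
Level (mean UMIs per 10000) of 14 genes in the macrophage-like cells of barcode sets 1, 2 and 3, with 95% counting intervals as error bars. *Ccl2* and *Ccl12* are highest in set 2, *Ccl6*, *Ccl9*, *Lyve1*, *Fabp5*, *Lgals3* and *Pkm* in set 3, and *Selenop*, *Hpgd* and *Slc40a1* lowest in set 3.

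Immediate early and stress genes were higher in set 2 than in set 1, with 8 of 15 genes called and none lower (median log2 ratio 1.08). Over all 361 myeloid cells 3 of 15 were called in this pair, with a median of 0.63. The list holds genes that also respond to tissue dissociation. *Hspa1a* and *Hspa1b*, which encode inducible HSP70 chaperones, were at 0.881, 5.03 and 3.23 and at 0.356, 2.49 and 0.987. *Hspa1a* was 5.71-fold higher (3.93 to 8.52) in set 2 than in set 1, while all other cells were at 1.83, 2.03 and 1.87. *Junb* was at 7.41, 16.5 and 12.1, *Egr1* at 2.76, 5.86 and 3.11, and *Ier2* at 3.05, 6.70 and 5.30. All other cells had 11.6, 21.1 and 10.3 for *Junb*. *Fos* was at 17.7, 25.7 and 22.8 and was not past 2-fold. When the cells holding granulosa markers were left out, *Junb* and *Ier2* fell to ratios of 1.87 and 1.92 in set 2 to set 1 and *Hspa1b*, at 15.7, was not called. *Egr1* was at a ratio of 1.83 without cluster 1 and 1.94 without its highest cell. The part of dissociation in these differences was not tested.

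Of 17 myeloid transcription factors compared, 3 were higher in set 2 than in set 1 and none lower, and of 16 compared between sets 3 and 2 *Runx1* alone was lower and none higher. *Runx1* was at 2.53, 5.65 and 2.32, and it was 2.23-fold higher (1.70 to 2.97) in set 2 than in set 1 and 0.411-fold (0.304 to 0.547) in set 3 against set 2. *Cebpb* was at 3.89, 7.91 and 4.19, with 3.35, 14.1 and 4.99 in all other cells. Of 8 inflammatory cytokine genes and regulators compared, *Nfkbia* and *Tnfaip3* were higher in set 2 than in set 1 and none lower. *Nfkbia*, the inhibitor that is itself induced by NF-kB, was at 5.57, 11.4 and 10.4, and *Tnfaip3* at 0.449, 0.919 and 0.711. *Tnf* and *Il1b* were at 0.714, 1.01 and 1.73 and at 1.21, 1.68 and 3.39, and both were called in set 3 against set 1. Without the cells holding granulosa markers the ratios of set 2 to set 1 were 1.54 for *Cebpb*, 1.94 for *Nfkbia* and 1.51 for *Tnfaip3*, under 2-fold, and they were also under 2-fold without cluster 1, at 1.74, 1.92 and 1.93. *Il1b* in set 3 to set 1 was at 1.70 without the granulosa markers, 1.80 without its highest cell and 0.941 without cluster 1. *Ifitm3*, an interferon-induced gene, was at 2.89, 6.27 and 11.8, with 2.07, 2.85 and 6.14 in all other cells. *Nr3c1*, the glucocorticoid receptor, was the only 1 of 8 steroid and gonadotropin receptor genes with enough UMIs to compare, at 0.727, 0.614 and 0.371, and was not called.

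MHC class II genes were called higher in sets 2 and 3, but few cells carried them. *H2-Aa* was at 0.111, 1.62 and 2.97, from 3 UMIs in 3 cells of set 1, 68 UMIs in 10 cells of set 2 and 74 UMIs in 8 cells of set 3. Its ratio in set 2 to set 1 was 14.7 (4.74 to 74.9). *Cd74* was at 1.36, 4.08 and 6.36, with 21, 37 and 23 cells, and 4 of the 8 genes compared were higher in set 2 than in set 1. These UMIs were mainly in cluster 1, where 17 of 90 cells held *H2-Aa*. Without that cluster the ratios of set 2 to set 1 were 0.265 for *H2-Aa* and 0.566 for *Cd74*, both below 1. *H2-Ab1* and *H2-Eb1* were below 1 as well, with ratios of 0.590 and 0.469. Over the 3 sets, clusters 2, 5 and 7 held 1, 4 and 2 UMIs of *H2-Aa*, under the 30 UMIs needed for a call. The *H2-Aa* ratios without cluster 1 are therefore no measure of direction. *Cd74* had 30, 21 and 12 UMIs in these clusters. In set 3 to set 1 without cluster 1, *Cd74* (0.742) and *H2-Eb1* (0.817) turned direction and *H2-Aa* (1.03) was not called. *H2-Ab1* (0.850) and *Cd74* (1.44) in set 2 to set 1 also lost the call when the 1 cell of highest level was left out. Over all 361 myeloid cells, *H2-Aa* was at 6.21, 5.49 and 4.66, and none of 9 genes was called in any pair.

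Of 16 proliferation genes compared, 6 were called lower in set 2 than in set 1 and none higher, with a median log2 ratio of -0.74. *Mki67* was at 1.45, 0.603 and 0.736 with 16, 11 and 14 cells, and it was 0.418-fold (0.280 to 0.617) in set 2 against set 1. *Ccna2*, which encodes cyclin A2, was at 0.418, 0.130 and 0.303, and *Tyms*, thymidylate synthase, at 0.566, 0.217 and 0.346. All other cells were at 0.350, 0.215 and 0.242 for *Mki67*. No proliferation gene of the list was called in set 3 against set 2 or set 1 in the macrophage-like cells. Over all 361 myeloid cells, in contrast, 6 of 16 were lower in set 3 than in set 1, *Mki67* and *Ccna2* among them, with a median log2 ratio of -0.85. Without cluster 1, *Mki67* and *Ccna2* had ratios of 0.989 and 0.713 in set 2 to set 1. Such genes lead that cluster, but it also held most macrophage-like cells of set 2. *Mki67* was at 0.577 without its highest cell, and *Ccna2* at 0.620 without the cells holding granulosa markers. *Tyms* was not called under either setting that left out a group of cells, although its ratio was then lower, at 0.132 without cluster 1 and 0.0851 without the granulosa markers.

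Some genes of iron handling were lower in set 3. *Hpgd*, which encodes the enzyme that inactivates prostaglandins and was listed with the iron genes as a mark of the same macrophages, was at 2.20, 2.14 and 0.229, with 30, 39 and 5 cells. It was 0.107-fold (0.0378 to 0.244) in set 3 against set 2, while all other cells were at 1.44, 0.727 and 0.364. *Slc40a1* was at 3.20, 2.39 and 0.970 and *Cp* (ceruloplasmin) at 0.954, 0.884 and 0.344. *Hmox1*, which degrades heme, was in contrast at 3.67, 4.56 and 8.54 and was 2.33-fold higher (1.87 to 2.92) in set 3 than in set 1. From set 2 to set 3, 3 of the 9 genes of this list were lower, *Slc40a1*, *Cp* and *Hpgd*, and none higher. All 3 are among the 10 leading genes of cluster 2, which held 27, 27 and 1 cells of sets 1, 2 and 3. They describe the same difference as that cluster and are no independent measure of it. Without the cells holding granulosa markers, the ratios of set 3 to set 2 were 0.0775 for *Hpgd* and 0.326 for *Cp*, and neither was called. *Hmox1* was at 1.61 without its highest cell and 1.95 without cluster 1.

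Genes of resident tissue macrophages beside vessels did not move one way. Of 13 compared between sets 3 and 2, 2 were higher and 1 lower, with a median log2 ratio of 0.05, and of 13 between sets 3 and 1, 2 were higher and 2 lower. *Selenop*, the selenium transport protein, was at 18.8, 16.8 and 7.17 and was 0.427-fold (0.364 to 0.499) in set 3 against set 2, with 1.85, 1.57 and 0.565 in all other cells. *Lyve1* was in contrast at 0.888, 0.351 and 2.49, detected in 13, 8 and 25 cells, and 7.08-fold higher (3.92 to 13.8) in set 3 than in set 2. All other cells went from 0.0608 and 0.0577 to 1.08 for *Lyve1*, a larger ratio of 18.6. *Lyve1* also leads cluster 5, which held 40 cells of set 3, so its level in set 3 is no independent measure of that cluster. *Mrc1*, the mannose receptor, was at 11.3, 9.65 and 7.67 and *Folr2* at 1.78, 1.62 and 1.47, and neither was called. *Cd72*, a lectin of B cells and macrophages, was at 2.68, 2.63 and 0.704, with 0.0141, 0.0179 and 0.00878 in all other cells, and was 0.268-fold (0.163 to 0.422) in set 3 against set 2. *St3gal6*, a sialyltransferase, was at 0.818, 0.924 and 0.0744, with 23, 33 and 4 cells. The call of *St3gal6* ended without the cells holding granulosa markers, at a ratio of 0.108 in set 3 to set 2, and without cluster 1, at 0.135. *Lyve1* was lower in set 2 than in set 1, a call that ended at 0.371 and 0.568 under the same settings.

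Lipid and scavenger genes split in direction. From set 2 to set 3, *Fabp5* went from 4.27 to 13.3, *Lgals3* (galectin 3) from 1.19 to 4.80 and *Msr1*, the class A scavenger receptor, from 1.26 to 3.41. *Msr1* was 2.70-fold higher (1.91 to 3.87), and it was detected in 28, 40 and 57 of 61, 83 and 69 cells. *Cd36*, a scavenger receptor for fatty acids and lipoproteins, went from 1.86 to 0.726, *Abca1*, which exports cholesterol, from 3.67 to 1.82 and *Lpl* (lipoprotein lipase) from 1.12 to 0.552. Of 13 lipid genes compared, *Gpnmb*, *Fabp5* and *Lgals3* were higher and *Lpl*, *Abca1* and *Fabp4* lower, with a median log2 ratio of 0.03. Of 11 scavenger and efferocytosis receptor genes, *Msr1* was higher and *Cd36* and *Abca1*, which stands in both lists, lower, with a median of -0.57. For *Fabp4*, all 30 of its UMIs in set 2 were in 1 cell, and its ratio in set 3 to set 2 turned to 3.70 without that cell. *Cd36* (0.418) and *Lpl* (0.518) were no longer called without the cells holding granulosa markers, and *Abca1* was at 0.538 without its highest cell. *Fabp5* was at 1.87 without cluster 1.

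Of 12 glycolysis genes compared, 4 were called higher in set 3 than in set 2 and none lower, with a median log2 ratio of 0.71. *Pkm* (pyruvate kinase) was at 2.08, 1.51 and 4.79 and was 3.17-fold higher (2.38 to 4.25) in set 3 than in set 2, with 2.12, 1.84 and 3.41 in all other cells. *Hk2* (hexokinase 2) was at 0.449, 0.412 and 0.964, *Pgk1* at 1.31, 0.713 and 2.08, and *Pgam1* at 1.99, 1.58 and 3.97. All other cells had ratios of 1.51, 2.08 and 2.21 for these 3 genes between the same sets, so the order was shared with the rest of the ovary. *Hk2* was at 1.85 without its highest cell.

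A few genes stood out by single values. *Lilr4b*, an inhibitory leukocyte receptor, had no UMI in the 61 macrophage-like cells of set 1 and was at 1.13 in set 2, detected in 37 of 83 cells, and at 0.303 in set 3, in 11 of 69. Against 3 UMIs in set 1 it was at least 15.7-fold higher in set 2. It also had no UMI in all other cells of set 1. *Cd209f* was at 6.01, 0.0242 and 1.27, from 150 UMIs in 12 cells, 1 UMI in 1 cell and 67 UMIs in 4 cells, and *Cd209g* at 1.38, 0.0242 and 0.623. Apart from cluster 2, which held 1 cell of set 3, macrophage-like cells had *Cd209f* only as 4 UMIs in 3 cells of cluster 5. Nearly all of the 67 UMIs of set 3 were therefore in 1 cell. Without the cells that held 3 or more granulosa markers, *Cd209f* was at a ratio of 0.406 in set 3 to set 2 and *Cd209g* at 0.271, and neither was called. The calls of *Lilr4b* and *Gdf15*, with ratios left of 5.74 and 14.2 in set 2 to set 1 and of 0.324 and 0.0375 in set 3 to set 2, also ended without those cells, and that of *Clec4d* between sets 3 and 2 ended without cluster 1, at 14.4. The ratio of *Lilr4b* to set 1 and that of *Gdf15* in set 3 are bounds against 3 UMIs, a floor that rises when cells are left out. *Gdf15* was at 0.0184, 1.04 and 0, and its 58 UMIs of set 2 were in 5 cells. *Clec4d*, a C-type lectin of myeloid cells, was at 0.194, 0.0449 and 0.907 and was detected in 6, 3 and 23 cells.

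Transcripts of follicle cells also moved in the macrophage-like cells. *Star*, which encodes the protein that delivers cholesterol for steroid synthesis, was at 0, 0.445 and 0.667, in 0, 19 and 26 cells, while all other cells were at 0.266, 4.01 and 5.73. *Inhba* was at 0.676, 1.14 and 0.0670, with 14.0, 17.3 and 1.10 in all other cells, and *Timp1* at 0.0855, 0.0158 and 0.897, with 0.410, 0.496 and 8.79. In all 3 genes the level in macrophage-like cells was below that in all other cells of the same set, and their order over the sets was alike for *Star* and *Inhba*. The summed level of 10 granulosa markers in the macrophage-like cells was 11.1, 12.3 and 4.64, and its part in these genes was not tested. Without the cells holding 3 or more of them, the calls of *Star* in set 3 to set 1 (a ratio of 4.203, from 9.30) and *Inhba* in set 3 to set 2 (0.212, from 0.0589) ended. *Star* had no UMI in set 1, so its ratios were taken against 3 UMIs in that set. This floor rises when cells are left out, so the fall of the *Star* ratio is not a measured drop. *Timp1* kept its call in set 3 to set 2, with a ratio of 11.5 in place of 56.7.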

How the data were processed

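Single-cell RNA-seq of 3 ovary libraries on the 10x Genomics platform was analysed. The authors deposited 1 table of natural log values, ln(1 + UMIs per 10000 UMIs of the cell), for 24958 genes and 31776 cells. The submitters' processing notes name Cell Ranger, Seurat and mm10, and no versions are given in the sources used here. UMI counts were worked back from the deposited natural log values, of which 100% were whole within 0.01 UMI, giving 240030587 UMIs. Cell filters are not stated in the sources used here. No column was tied to a library, and samples were described by barcode ending.

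The members and gene lists were chosen with earlier results of these data known. A level is the mean over cells of UMIs per 10000, so it depends on the other RNA of a cell, and shallow cells count as much as deep ones. Shares have exact binomial 95% intervals. Ratios have 95% counting intervals on effective counts, which allow for cells of unequal depth and were added after the calling had been tested on simulated data. A call needed a ratio of at least 2 or at most 0.5, 30 UMIs, and both this interval and the interval of the summed UMIs leaving out 1. A level of 0 was replaced by 3 UMIs over the cells of the set in a ratio.

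Clustering used 1000 variable genes at least 2-fold above all other cells and detected in at least 10 members, 20 principal components, 15 neighbours and Louvain at resolution 1. A marker counted when detected in at least 25% of a cluster's cells at 10-fold the level of other cells. A name needed 3 markers and 50% of a list, a threshold set after seeing the clusters. A cluster also stayed unnamed when another type had more markers among its 10 leading genes, or when its median UMIs were less than 1 part in 3 of those of the sets and none of its own markers led. Doublets were not called. The exclusions of the rule and the alternative without granulosa markers bear only on doublets with granulosa, theca or endothelial cells. Motifs were searched in RefSeq promoters. The software was Python 3.11.15 with matplotlib 3.10.9, python-igraph 0.11.9, scikit-learn 1.9.0, scipy 1.17.1 and numpy 2.4.6. Named genes were listed genes and markers, the 20 of largest fold, the 8 of largest fold per pair and direction, the same among genes 2-fold above all other cells, the 10 leading genes of each cluster and the genes of the rule. Alternatives are given in the closing section.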

Additional observations from a re-analysis of the deposited data

Results flagged for a closer look

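Cells outside the rule carried leukocyte genes that the report does not use. UMIs of at least 2 of *S100a8*, *S100a9* and *Retnlg* were found in 26 such cells, of which 0, 15 and 11 were in sets 1, 2 and 3, with a median of 1291 UMIs. Of the myeloid cells, 32 held them. UMIs of at least 3 of 12 T cell markers were found in 19 cells outside the rule and in 6 myeloid cells. A count of 0 would allow up to 3 such cells, but no rate for cells that only hold free RNA was measured, and no explanation was weighed.

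Some genes were called in opposite directions in macrophage-like cells and in all other cells between the same barcode sets. In macrophage-like cells, 2 such genes were higher in set 2 than in set 1, 2 were higher and 5 lower in set 3 than in set 2, and 3 were higher and 2 lower in set 3 than in set 1. The 6 genes among these that belong to the gene and marker lists are given here. The difference between the 2 groups of cells was not tested, and with so many genes compared some calls arise by chance. *Msr1* had a ratio of 2.979 in macrophage-like cells in set 3 to set 1, and *Il18*, which encodes an interleukin, had a ratio of 2.521 in set 3 to set 2. The ratios were below 1 in macrophage-like cells for the lectin genes *Mgl2* (0.3159 in set 3 to set 2) and *Clec10a* (0.4686 in set 3 to set 2 and 0.4445 in set 3 to set 1). They were also below 1 for *Fabp4* (0.4511 in set 3 to set 2), whose UMIs in set 2 were in 1 cell, and for *Fscn1* (0.477 in set 3 to set 1), an actin-bundling protein gene. Without cells holding 3 or more granulosa markers, *Il18* (1.53), *Clec10a* in set 3 to set 2 (0.625), *Fabp4* (0.636) and *Fscn1* (0.552) were not called.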

How the results depend on the processing

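No paired analysis was possible because each time point had 1 library and no test was run. Of the values of named genes recomputed under an alternative, 1143 kept their call, 303 lost it in the same direction and 23 turned direction. In macrophage-like cells without cluster 1, the ratios that turned were *H2-Aa* 0.265, *H2-Ab1* 0.590, *H2-Eb1* 0.469 and *Cd74* 0.566 in set 2 to set 1, and *Cd74* 0.742, *H2-Eb1* 0.817 and *Il1b* 0.941 in set 3 to set 1. That of *H2-Aa* is no measure of direction, since clusters 2, 5 and 7 held 1, 4 and 2 of its UMIs over the 3 sets. Without each gene's highest cell the ratios that turned were *H2-Ab1* 0.850 and *Fabp4* 0.888 in set 2 to set 1 and *Fabp4* 3.70 in set 3 to set 2. Without cells holding 3 or more granulosa markers they were *Gpnmb* 4.66 in set 2 to set 1 and *Cd209f* 0.406 and *Cd209g* 0.271 in set 3 to set 2. Over all myeloid cells, *Gpnmb* turned to 4.83 in set 2 to set 1 without the granulosa markers. With 4 genes and 2 UMIs required, *Gzma* turned to 0.698 and 0.761 in sets 2 and 3 to set 1, *S100a9* to 0.704 in set 3 to set 1 and *Ncr1* to 1.09 in set 3 to set 2. In the macrophage-like clusters alone, *Col1a1* turned to 0.545 in set 2 to set 1, *Saa3* to 0.521 in set 3 to set 2 and *S100a8* to 0.734, *Ifitm6* to 0.973 and *Fn1* to 0.757 in set 3 to set 1. The cause was not tested. The share of myeloid cells was 0.972% with 4 genes required (1.01% in set 3) and 1.30% with no exclusion by *Inha*, *Cyp17a1* and *Cdh5*. The counts of genes past 2-fold over all myeloid cells are given in the order higher and lower. With at least 100 UMIs they were 36 and 16 in set 2 against 1, 106 and 58 in set 3 against 2, and 94 and 68 in set 3 against 1. With a fold of 3 they were 53 and 25, 93 and 80, and 143 and 82. Without cells holding 3 or more granulosa markers they were 43 higher in set 2 than in 1, 183 and 78 in set 3 against 2, and 120 lower in set 3 than in 1. This alternative moved the share of higher calls from 59.1% to 41% in set 2 against 1, from 59% to 70.1% in set 3 against 2 and from 53.8% to 64.1% in set 3 against 1. The share in set 2 against 1 was 69.2% with 100 UMIs and 47.4% in the macrophage-like clusters.

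In macrophage-like cells without those granulosa markers, the counts were 34 and 51 in set 2 against 1, 173 and 84 in set 3 against 2, and 101 lower in set 3 than in 1. Without cluster 1 they were 61 and 43 in set 2 against 1. These alternatives, and the removal of each gene's highest cell, were added after seeing the data. Class shares changed with the clustering. With each set clustered separately, macrophage-like cells were 37.8% and 47.7% of sets 1 and 2, unnamed cells 62.2%, 52.3% and 20.6% of sets 1, 2 and 3, monocyte-like cells 0% of sets 1 and 2, and neutrophil-like and dendritic-like cells 0% of every set. At resolution 2, set 2 had 35.4% macrophage-like and 42.3% unnamed cells. The unnamed clusters there held 13 and 10 of 18 macrophage markers and were left unnamed for leading genes of other types, a single marker in the first, so this fall follows from the naming. At resolution 0.5 and with unfiltered variable genes, monocyte-like cells were 0% of every set, and neutrophil-like cells were 13.8% and 13.1% of set 2 and 36.9% and 36.2% of set 3. With unfiltered genes, unnamed cells were 5.56% and 7.69% of sets 1 and 2. Of the 20 genes of largest fold, 10 were kept after thinning and 7 with the mean of the deposited log values.

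The macrophage-like cells numbered 61 to 83 per set, so rare transcripts rest on few cells.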
